A study of Mus musculus with 8 samples.

Results

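The genes described are the 10 BMP ligand and receptor genes Bmp2, Bmp3, Bmp4, Bmp5, Bmp6, Bmp7, Bmpr1a, Bmpr1b, Bmpr2 and Acvr1, taken by gene symbol from a table of 26747 assembled loci in mouse embryonic stomach. Each symbol matched 1 locus, all 10 are annotated as protein-coding, and all 10 passed the filter on low counts that left 14574 loci for testing. RNA was sequenced from whole stomachs at embryonic stage E13.5 in 4 wild type libraries and 4 libraries from embryos with Nkx3.2Cre and R26-YAP5SA, called YAP5SA below. In these embryos the Nkx3-2 gene, a mesenchymal gene of the stomach, drives Cre, and Cre turns on a form of the coactivator YAP from the R26 locus that escapes restraint by the Hippo kinases. A group with the Cre allele alone is not among the libraries, so its effects and those of active YAP cannot be told apart, and the labels do not say whether a library came from 1 stomach or a pool. The question was how the ligands and receptors of this pathway differ between the genotypes.

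Bone morphogenetic proteins (BMPs) are secreted dimers of the TGF-β superfamily. They bring together type I receptors (BMPR1A, BMPR1B and ACVR1 here) and type II receptors (BMPR2 here). The active type I kinase then phosphorylates SMAD1, SMAD5 and SMAD9, which enter the nucleus with SMAD4 and switch on genes such as the Id and Msx families. BMP2 and BMP4 are close relatives, BMP5, BMP6 and BMP7 form another subgroup, and BMP3 is an atypical member that opposes the signalling of other BMPs. In the developing gut BMP signals pass between mesenchyme and epithelium and take part in regional patterning and in the formation of muscle layers and enteric nerves.

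In YAP5SA stomachs 3 of the 6 ligands and 1 of the 4 receptors passed the test. Bmp3 was 3.83-fold and Bmp4 1.41-fold higher, while Bmp5 was 2.06-fold lower. Among the receptors, Bmpr1b was 1.48-fold lower, with a call that many alternatives did not keep, and Bmpr1a, Bmpr2 and Acvr1 were not called. At a Benjamini-Hochberg adjusted p under 0.05 over all tested loci (edgeR), 2 of the 10 members were higher, where 9.06% of all tested loci were, and 2 were lower, where 9.85% were. The 4 called members stand beside 18.9% of all tested loci called in either direction. The members' median log2 fold change was 0.17, beside −0.01 for all tested loci. With the replicate number as a block, 4 members were higher (9.91% of all tested loci) and 1 was lower (10.9% of all tested loci). The difference between ligands and receptors as groups was not tested.

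The libraries held 6.33 to 6.92 M fragments in wild type and 7.29 to 8.51 M in YAP5SA. Levels are given as CPM, counts scaled by library size, when libraries are compared, and as FPKM, which is also divided by transcript length, when genes are compared. Fold changes are YAP5SA over wild type on the log2 scale with a standard error (SE, n = 4 libraries per genotype). The labels could be checked on target genes of YAP. Ankrd1 stood at no more than 0.948 CPM in any wild type library and at 21.9 to 69.2 CPM in YAP5SA, Cyr61 rose by 1.48 ± 0.12 (adjusted p = 5.5e-05) and Ctgf by 0.75 ± 0.18 (adjusted p = 0.015). Yap1 itself was at 232 ± 7.46 CPM in wild type libraries and 224 ± 13.46 CPM in YAP5SA libraries (SD, n = 4, adjusted p = 0.55), and Nkx3-2 at 63.0 ± 10.5 and 79.1 ± 14.5 CPM (adjusted p = 0.15). Transcripts of the transgene were not analysed here.

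Promoter sequences are shown for the called members that the RefSeq table holds, because the genotypes differed in these transcripts and the windows differ widely in base composition. The windows run from 250 bases before to 50 bases after an annotated transcription start on GRCm38.p6. They are printed 5′ to 3′ on the strand of the gene, with each CpG dinucleotide in capitals. Bmp4 is at chr14:46390620-46390919 on the minus strand, Bmp5 at chr9:75775115-75775414 on the plus strand, and Bmpr1b, at the most upstream of its 3 listed starts, at chr3:141982215-141982514 on the minus strand. The Bmpr1b locus as assembled reaches further upstream, to position 142169469, so a start at that end is not covered by these windows.
Bmp4: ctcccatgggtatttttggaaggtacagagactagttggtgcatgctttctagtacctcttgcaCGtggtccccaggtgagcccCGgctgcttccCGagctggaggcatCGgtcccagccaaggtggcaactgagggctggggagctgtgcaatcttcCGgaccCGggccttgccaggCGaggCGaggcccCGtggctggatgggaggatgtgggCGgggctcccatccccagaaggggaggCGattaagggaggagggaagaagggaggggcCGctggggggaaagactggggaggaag
Bmp5: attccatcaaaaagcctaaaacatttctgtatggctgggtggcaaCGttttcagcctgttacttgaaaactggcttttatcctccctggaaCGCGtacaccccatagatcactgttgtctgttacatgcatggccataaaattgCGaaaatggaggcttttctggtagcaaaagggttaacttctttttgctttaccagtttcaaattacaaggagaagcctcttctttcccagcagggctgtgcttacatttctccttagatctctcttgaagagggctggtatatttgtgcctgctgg
Bmpr1b: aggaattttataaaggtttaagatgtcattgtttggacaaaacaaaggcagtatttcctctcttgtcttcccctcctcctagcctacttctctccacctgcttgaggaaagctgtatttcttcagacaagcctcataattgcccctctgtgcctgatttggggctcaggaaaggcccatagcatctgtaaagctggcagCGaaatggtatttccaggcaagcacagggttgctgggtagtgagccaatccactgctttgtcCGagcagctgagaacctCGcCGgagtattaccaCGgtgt
The Bmp4 window, from the ligand that rose, had a GC content of 64.0% and 12 CpGs. The Bmp5 window, from the ligand that fell, had 43.3% and 4 CpGs. The Bmpr1b windows had 48.3% to 55.7% and 5 or 6 CpGs. Over 32851 promoters of the same length in that table the medians were 52.7% and 7 CpGs. Members that were not called had more CpGs in their windows, namely 27 for Bmp6, 23 for Bmpr2, 48 for Bmpr1a and 51 for Acvr1. GC content and CpG count were above the medians in the Bmp4 window and below them in the Bmp5 window. The Bmpr1b windows lay on both sides of the GC median, and Bmp3, which also rose, had no window. Both measures were highest among receptors that were not called, and a link of composition to direction was not tested. The core of the motif bound by TEAD factors, the DNA-binding partners of YAP, was searched as GGAATG on both strands and had no match in any of the 9 windows of 7 members, where 14.7% of all promoters hold one. A GC-rich SMAD motif, GGCGCC, which reads the same on both strands, was found 198 bases before the start of Bmpr1a and 105 bases before that of Bmpr2, and 11.9% of all promoters hold it. These are matches of letters in short windows and say nothing of binding.

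In wild type stomach the most abundant member was the receptor Bmpr1a, at 45.2 ± 1.46 FPKM (SD, n = 4). Bmp7 at 34.4 ± 2.58 FPKM and Bmp4 at 33.0 ± 3.17 FPKM followed, and their ranges over the libraries overlapped. The receptors Acvr1 (24.3 ± 1.04 FPKM) and Bmpr2 (19.0 ± 3.28 FPKM) came next. The 2 most abundant ligands thus came from different BMP subgroups, and receptors of both types were among the upper members. Bmp5 (11.7 ± 1.501 FPKM), Bmpr1b (11.6 ± 2.16 FPKM) and Bmp6 (7.43 ± 1.23 FPKM) were lower, each overlapping its neighbour in this order. Bmp2 (3.598 ± 1.04 FPKM) and Bmp3 (2.11 ± 0.57 FPKM) were the least abundant and overlapped each other.

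In YAP5SA stomach the order changed among both abundant and scarce members. Bmp4 reached 47.1 ± 4.94 FPKM, within the range of Bmpr1a at 46.5 ± 2.11 FPKM, and no longer overlapped Bmp7 at 34.4 ± 2.33 FPKM. Acvr1 stood at 25.4 ± 1.10 FPKM and Bmpr2 at 22.5 ± 1.29 FPKM. Below them lay Bmp6 (9.35 ± 1.15 FPKM), Bmp3 (8.66 ± 4.33 FPKM), Bmpr1b (7.92 ± 1.60 FPKM), Bmp2 (6.68 ± 2.69 FPKM) and Bmp5 (5.68 ± 1.33 FPKM). Each of these lower members overlapped the next, so their order is not resolved beyond the spread. Bmp5 was the sixth most abundant member in wild type and the lowest in YAP5SA by its mean.

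**Figure D1:**
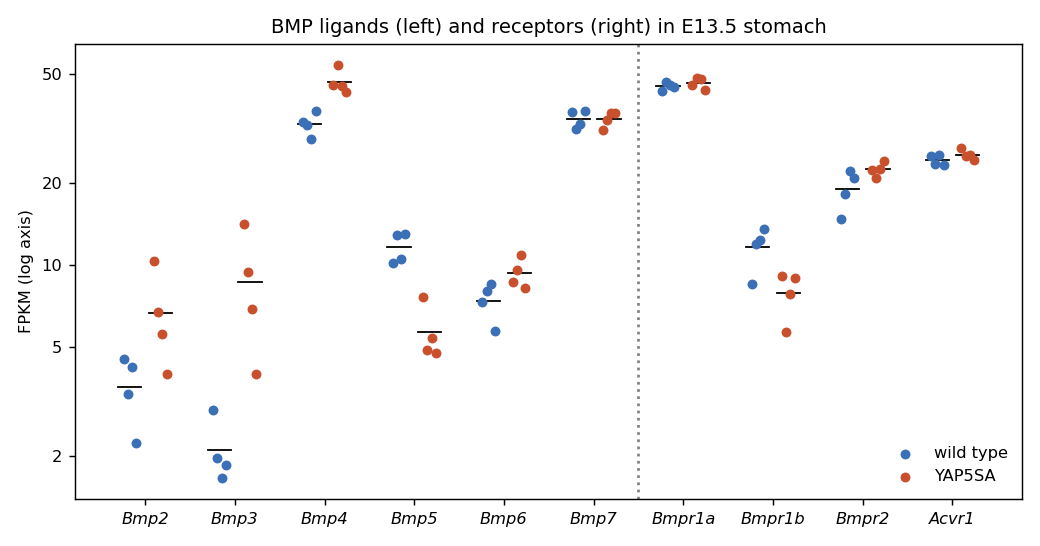
FPKM of each member (log axis) in 4 wild type (blue) and 4 YAP5SA (orange) libraries, with a black line at the mean and ligands left of the dotted line. Bmp3 and Bmp4 points lie higher and Bmp5 points lower in YAP5SA without overlap, while Bmp7, Bmpr1a and Acvr1 points overlap.

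Bmp3 (locus XLOC_017771, chromosome 5, 98854438 to 98884036, mm10), the atypical ligand that opposes other BMPs, was higher in YAP5SA. The wild type libraries numbered 1 to 4 had 12.7, 9.997, 7.497 and 7.90 CPM. The YAP5SA libraries numbered 1 to 4 had 64.2, 37.9, 27.1 and 16.4 CPM. All 4 YAP5SA values lay above every wild type value, but they spread 3.92-fold among themselves. The log2 fold change was 1.94 ± 0.38 (adjusted p = 0.0052), with a 95% interval of 2.15-fold to 6.82-fold. Replicate 1 of YAP5SA was the highest, and without it the log2 fold change was 1.52 (adjusted p = 0.006). Replicate 1 was also the deepest library, and loci covered as thinly as Bmp3 (0.02 to 0.05 fragments per exonic base) took 7.04% of its fragments and 6.15% to 6.57% in the other libraries. With deviations from both genotype means pooled, fragments at such loci grew with library depth at a log-log slope of 1.63. The share of such loci hardly varied in wild type (6.50% to 6.57%) and was 6.15% to 6.33% in YAP5SA replicates 2 to 4. Its rise with depth was thus seen mainly in YAP5SA replicate 1, and no slope was fitted per genotype. The part of depth in the size of the Bmp3 change was not tested.

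Bmp2 (XLOC_012954, chromosome 2, 133552260 to 133562886), a ligand close to Bmp4 in sequence, had higher values in YAP5SA but was called only under some settings. Its wild type libraries had 13.8, 9.85, 12.4 and 6.79 CPM, and its YAP5SA libraries 30.3, 20.04, 17.8 and 12.1 CPM. The upper 3 YAP5SA values lay above all wild type values, and YAP5SA replicate 4 fell among them. Its log2 fold change was 0.90 ± 0.29 (adjusted p = 0.053), with a 95% interval of 1.2-fold to 2.92-fold. Each YAP5SA library exceeded the wild type library of the same number, but the labels do not say that numbers are pairs. With the replicate block the call was passed (0.88, adjusted p = 0.0037). It was also passed with DESeq2 (adjusted p = 0.019), without wild type replicate 1 (0.049) and without YAP5SA replicate 4 (0.02). Bmp2 lies at 0.032 fragments per exonic base, in the same range of coverage as Bmp3.

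Bmp4 (XLOC_007226, chromosome 14, 46379523 to 46390599), a ligand made by gut mesenchyme, rose by a small amount with little spread. Wild type libraries had 61.3, 59.8, 53.4 and 67.4 CPM, and YAP5SA libraries 82.6, 98.8, 82.2 and 78.5 CPM. The genotypes did not overlap. On the log2 scale the rise was 0.50 ± 0.09 (adjusted p = 0.0033), and the 95% interval ran from 1.24-fold to 1.62-fold. Bmp4 is covered at 0.232 fragments per exonic base, and loci at 0.2 to 0.3 gained fragments with depth at a pooled slope of 0.76. Their share of fragments was 16.7% to 16.9% in wild type libraries and 16.1% to 17.1% in YAP5SA libraries, lowest in replicate 1. In YAP5SA replicates 2 to 4 that share was 16.8% to 17.1%. The different slopes of loci as thin as Bmp3 and as dense as Bmp4 thus came mainly from YAP5SA replicate 1. Neither slope was shown for these 2 genes themselves, and the sizes of their changes are not compared.

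Bmp5 (XLOC_024403, chromosome 9, 75775364 to 75900217) was the ligand that fell. Its wild type libraries had 31.6, 36.5, 29.8 and 38.2 CPM, and its YAP5SA libraries 21.3, 13.7, 16.3 and 14.5 CPM. Every YAP5SA value lay below every wild type value. This was a log2 fold change of −1.04 ± 0.15 (adjusted p = 0.0011), and the 95% interval of YAP5SA over wild type was 0.386 to 0.610. Bmp5 lies at 0.043 fragments per exonic base, in the range of 0.02 to 0.05 that also holds Bmp3. The part of depth in its change was not tested. Of the 10 members, 3 (Bmp3, Bmp4 and Bmp5) had no overlap between the genotypes, as did 23.3% of all tested loci.

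Bmp6 and Bmp7, the relatives of Bmp5, were not called. Bmp6 (XLOC_005744, chromosome 13, 38345115 to 38528464) had 35.9, 37.9, 41.98 and 28.1 CPM in wild type libraries and 42.2, 46.7, 52.3 and 37.7 CPM in YAP5SA libraries. The genotypes overlapped, although each YAP5SA library exceeded the wild type library of its number, a pairing that the labels do not state. The log2 fold change of Bmp6 was 0.31 ± 0.13 (adjusted p = 0.14), and with the replicate block it was 0.32 (adjusted p = 0.015). Bmp7 (XLOC_014192, chromosome 2, 172868014 to 172940567) had 96.4, 90.7, 85.0 and 101 CPM in wild type libraries and 88.2, 94.4, 99.3 and 96.6 CPM in YAP5SA libraries. Its YAP5SA values lay inside the wild type range. For Bmp7 the log2 fold change was 0.02 ± 0.06 (adjusted p = 0.86), with a 95% interval of 0.922-fold to 1.12-fold. The interval is for the level of this abundant ligand in RNA of whole stomach, not in any cell type.

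**Figure D2:**
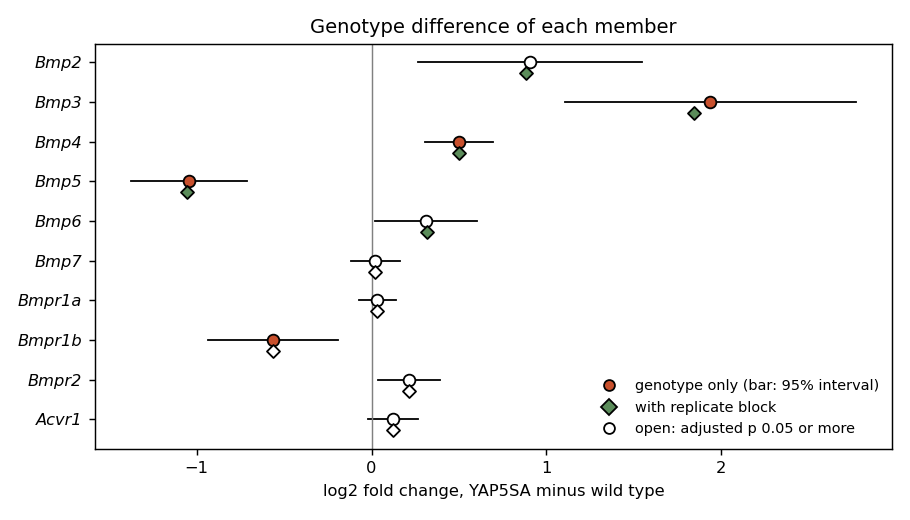
Log2 fold change of each member, YAP5SA minus wild type, from the fit on genotype alone (circles, with 95% intervals) and with the replicate block (diamonds), filled where the adjusted p was under 0.05. Bmp3, Bmp4 and Bmp5 are filled in both fits, Bmp2 and Bmp6 with the block alone, and Bmpr1b in the fit on genotype alone.

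The mix of ligand transcripts shifted with these changes. The summed FPKM of the 6 ligands was 94.9, 90.4, 87.2 and 96.5 in the wild type libraries and 118, 119, 110 and 100.3 in the YAP5SA libraries. In wild type, Bmp7 and Bmp4 made up 37.3% ± 1.67 and 35.8% ± 1.97 of that sum (SD, n = 4), and in YAP5SA 31.0% ± 4.27 and 42.1% ± 2.94. Bmp4 took a larger share than Bmp7 in every YAP5SA library, and its share in each of them lay above the wild type range of 33.4% to 38.2%. The share of Bmp5 went from 12.7% ± 1.56 to 5.07% ± 1.00, with no overlap. The share of Bmp3 went from 2.28% ± 0.56 to 7.58% ± 3.41, between 3.98% in replicate 4 and 12.1% in replicate 1. Bmp2 held 3.92% ± 1.197 and 5.88% ± 2.05, and Bmp6 8.11% ± 1.67 and 8.38% ± 1.05, with overlapping ranges. Shares of a sum depend on each other and on FPKM as deposited, and no test was made on them.

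**Figure D3:**
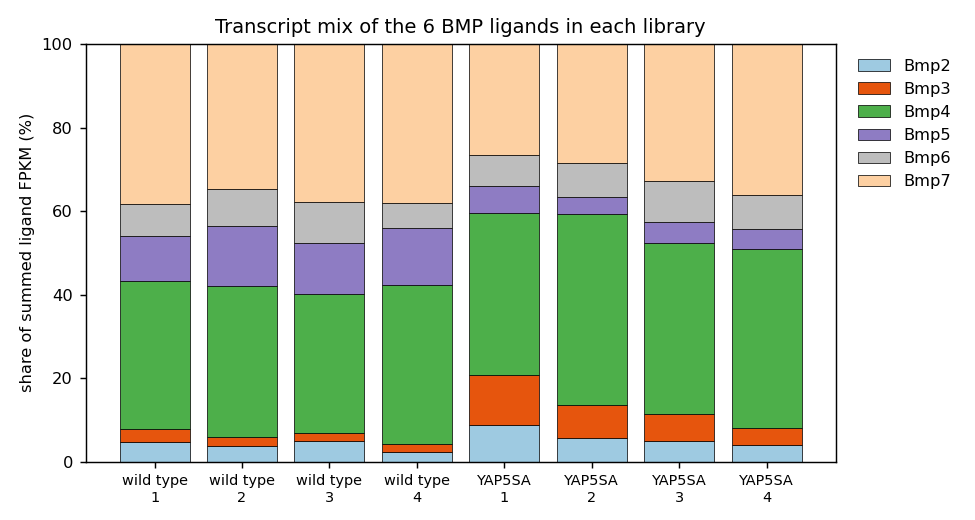
Share of the summed FPKM of the 6 ligands (%) taken by each ligand, 1 bar per library. The Bmp5 band narrows from 10.8% to 14.3% in wild type to 4.13% to 6.48% in YAP5SA, and the Bmp3 band widens from 1.90% to 3.10% to 3.98% to 12.1%.

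Among the type I receptors, Bmpr1a and Acvr1 showed little difference. Bmpr1a (XLOC_007192, chromosome 14, 34410734 to 34503600), the most abundant BMP receptor here, had 238, 258, 254 and 249 CPM in wild type libraries and 252, 265, 264 and 243 CPM in YAP5SA libraries. Acvr1 (XLOC_013508, chromosome 2, 58439683 to 58566872), the type I receptor used by ligands of the BMP7 subgroup, had 59.4, 54.2, 60.6 and 53.4 CPM in wild type libraries and 66.6, 59.8, 61.2 and 60.2 CPM in YAP5SA libraries. Both genes overlapped between the genotypes. Bmpr1a had a log2 fold change of 0.03 ± 0.05 (adjusted p = 0.69), with a 95% interval of 0.951-fold to 1.10-fold. That of Acvr1 was 0.12 ± 0.06 (adjusted p = 0.22), with an interval of 0.987-fold to 1.203-fold. Bmpr1a is covered at 0.282 fragments per exonic base, the densest of the members. It lies in the group of loci with the pooled slope of 0.76, and the part of depth in its fold change was not tested.

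Bmpr1b (XLOC_015576, chromosome 3, 141837135 to 142169469), the type I receptor with the narrower expression in most tissues, was lower in YAP5SA. Its wild type libraries had 43.4, 61.0, 63.7 and 70.6 CPM, and its YAP5SA libraries 46.5, 29.2, 39.8 and 45.9 CPM. Wild type replicate 1 lay within the YAP5SA range, and in the pair numbered 1 the YAP5SA library was the higher. Its log2 fold change was −0.56 ± 0.17 (adjusted p = 0.04). The call was lost with the replicate block (−0.56, adjusted p = 0.065), without a filter on low counts (0.07) and in the 3 FPKM fits (0.064 to 0.079). It was also lost without wild type replicate 2 (0.1), 3 (0.095) or 4 (0.11) and without YAP5SA replicate 2 (0.09), 3 (0.1) or 4 (0.062). Its share of the summed FPKM of the 4 receptors was 11.5% ± 1.63 in wild type and 7.74% ± 1.5 in YAP5SA (SD, n = 4), without overlap.

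Bmpr2 (XLOC_000145, chromosome 1, 59763391 to 59877678), the type II receptor, had 129, 151, 166 and 155 CPM in wild type libraries and 189, 156, 173 and 178 CPM in YAP5SA libraries. The upper 3 YAP5SA values lay above all wild type values. The log2 fold change was 0.21 ± 0.08 (adjusted p = 0.092), and it passed the threshold without YAP5SA replicate 2 (0.28, adjusted p = 0.043). The summed FPKM of the 4 receptors was 100.2 ± 6.06 in wild type and 102 ± 1.95 in YAP5SA, with overlapping ranges, while the ligand sum went, without overlap, from 92.3 ± 4.24 to 112 ± 8.59 (SD, n = 4).

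The spread among YAP5SA libraries was not the same for all members. Bmp2 and Bmp3 were highest in YAP5SA replicate 1 and lowest in replicate 4, with coefficients of variation of 37.9% and 56.4%. Bmp6, Bmpr1b and Bmp5 lay between, at 14.0%, 19.9% and 20.8%. Bmp4, Bmp7, Bmpr1a, Bmpr2 and Acvr1 varied by 4.12% to 10.6% among the same libraries. Bmp2 and Bmp3 were also the most variable members among wild type libraries, at 28.9% and 25.1%. Ankrd1 and Cyr61 had their highest and lowest values in the same 2 libraries as Bmp2 and Bmp3, with 69.2 and 112 CPM in replicate 1 and 21.9 and 82.2 CPM in replicate 4. This likeness was noticed after the values were seen, and Ctgf was not included in it. The highest library exceeded the lowest by 3.17-fold for Ankrd1 and 1.36-fold for Cyr61, beside 2.51-fold for Bmp2 and 3.92-fold for Bmp3. Bmp5, Bmpr1b, Bmpr2 and Acvr1 were also highest in replicate 1, but lowest in replicate 2. Replicate 1 was also the deepest library, and the part of depth in the likeness was not tested.

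For each called member, the closest other profiles over the 8 libraries were found by the root-mean-square distance between centred log2 CPM among 13642 loci. Nearest to Bmp3 were Edn1 (0.28), which encodes endothelin-1, and Xlr3a (0.29). Nearest to Bmp4 were Eno3 (0.06), which encodes an enolase, and Mpp6 (0.06). Nearest to Bmp5 were A430107O13Rik (0.11) and Tmc7 (0.11), and nearest to Bmpr1b were Foxp2 (0.11), a forkhead transcription factor, and Fsd1l (0.11). Edn1 had 4.05 to 7.47 CPM in wild type libraries and 8.05 to 20.1 CPM in YAP5SA libraries, again highest in replicate 1 and lowest in replicate 4. The likeness is a description of these 8 libraries.

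Whole stomachs hold several cell types, and in bulk RNA fewer cells of a type and less RNA per cell cannot be told apart. All 11 measured epithelial markers were lower in YAP5SA, with a summed level of 1035 to 1239 CPM in wild type libraries and 542 to 790 CPM in YAP5SA libraries, among them Cdh1 (−0.72, adjusted p = 0.0061) and Krt18 (−0.29, adjusted p = 0.027). All 8 neuronal markers (529 to 614 and 270 to 336 CPM), led in CPM by Ret and Tubb3, and 5 of 6 glial markers (168 to 196 and 69.0 to 105 CPM), led by Erbb3 and Sox10, were lower as well. Smooth muscle markers were lower for 6 of 8 (1377 to 1478 and 678 to 899 CPM), including Myh11 (−1.48, adjusted p = 0.00051) and Mylk (−0.79, adjusted p = 1.9e-05). These falls stand beside those of Bmp5 and Bmpr1b, and their part in those results was not tested.

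Macrophage markers were higher for 6 of 7 (220 to 301 and 375 to 537 CPM), led in CPM by Csf1r and Cx3cr1, and liver markers for 2 of 4 (56.2 to 128 and 87.4 to 257 CPM), namely Afp and Alb. Both liver calls were lost with the replicate block (adjusted p = 0.15 for Afp and 0.11 for Alb), with limma-voom (0.091 and 0.13) and in the 3 FPKM fits (0.072 to 0.082 and 0.05 to 0.06). The macrophage and liver markers stand beside the rises of Bmp3 and Bmp4, and their part in those was not tested. Of 9 markers of mesenchyme, the tissue in which the Cre is active, 2 were lower and none was higher (2465 to 2558 and 2068 to 2396 CPM), with Col3a1 at −0.22 (adjusted p = 0.013) and Col1a1 at −0.08 (adjusted p = 0.34). Of 8 endothelial markers 1, Kdr, was higher (634 to 755.6 and 724 to 824 CPM), and Cdh5 was at 0.11 (adjusted p = 0.4). Mesothelial markers were lower for 1 of 5 (281 to 447 and 279 to 332 CPM), which was Upk3b, while Wt1 was at 0.21 (adjusted p = 0.32). Markers of spleen and pancreas were lower for 1 of 5 (147 to 295 and 171 to 210 CPM), with Cpa1 and Tlx1 not called. None of these marker lists had a measured gene at 0 in all libraries.

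Beyond the members, 69 other genes of the pathway were listed by role, of which 59 were tested, 18 were higher, 6 were lower and 35 were neither. Over all tested loci 9.06% were higher and 9.85% lower, and the counts of each role below are to be read beside these shares. With the replicate block 17 were higher and 9 lower, where 9.91% and 10.9% of all tested loci were. The lists were drawn up with earlier results of these data known. Among other ligands of the BMP and GDF groups, 7 of 14 were tested, 3 were higher and none was lower, and the list median was −0.09. Gdf6, a ligand close to the joint-forming GDFs, had 32.7, 44.7, 48.9 and 29.2 CPM in wild type libraries and 89.1, 123, 118 and 123 CPM in YAP5SA libraries, with a log2 fold change of 1.54 ± 0.16 (adjusted p = 0.00019). Bmp8b, a relative of Bmp5, Bmp6 and Bmp7, had 2.38, 1.91, 1.65 and 2.05 CPM in wild type libraries and 26.5, 11.9, 10.2 and 5.10 CPM in YAP5SA libraries, with a log2 fold change of 2.74 ± 0.47 (adjusted p = 0.0029). Neither gene overlapped between the genotypes. On FPKM with a pseudocount of 1 the Bmp8b change was 1.62 (adjusted p = 0.0055).

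Inhba, which encodes the activin A subunit, had 2.55 to 5.84 CPM in wild type libraries and 23.8, 13.54, 8.09 and 4.29 CPM in YAP5SA libraries, so replicate 4 lay within the wild type range. Its log2 fold change was 1.68 ± 0.48 (adjusted p = 0.034). The call was lost with the replicate block (1.51, adjusted p = 0.078), with limma-voom (0.11), without a filter on low counts (0.051), and in 2 FPKM fits (0.055 and 0.053). It was also lost without wild type replicate 1 (0.077), 2 (0.087) or 3 (0.086) and without YAP5SA replicate 1 (0.081) or 2 (0.072).

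Of 9 tested other receptors and coreceptors, none was higher and 2 were lower, with a median of −0.09. Both are repulsive guidance molecules, membrane-anchored BMP coreceptors. Rgmb had 160, 147, 177 and 164 CPM in wild type libraries and 103, 80.4, 89.3 and 84.6 CPM in YAP5SA libraries, with a log2 fold change of −0.85 ± 0.08 (adjusted p = 0.00013). Rgma stood at 103 to 140 and 69.2 to 88.5 CPM (−0.62 ± 0.11, adjusted p = 0.0031). Neither overlapped between the genotypes. With the replicate block 3 of these genes were lower and 1 was higher.

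Of the 7 signal transducers 2 were higher and none was lower, and the median was 0.02. Smad9, a receptor-activated SMAD, had 27.0 to 41.2 CPM in wild type libraries and 51.0 to 61.6 CPM in YAP5SA libraries (0.67 ± 0.12, adjusted p = 0.0029). Zfyve16, which encodes endofin, an adaptor on endosomes, was higher by 0.26 ± 0.06 (adjusted p = 0.017). The other receptor-activated SMADs were not called, with Smad1 at −0.09 (adjusted p = 0.34) and Smad5 at 0.02 (adjusted p = 0.9). These 2 were chosen after their values were seen.

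Extracellular antagonists and modulators moved in both directions. Of 17 tested genes 5 were higher and 4 lower, with a median of −0.13. With the replicate block 6 were higher and 4 lower. Nog, which encodes the secreted BMP-binding antagonist noggin, had 9.21, 11.03, 7.497 and 9.95 CPM in wild type libraries and 41.8, 43.5, 34.7 and 29.0 CPM in YAP5SA libraries, with no overlap. Its log2 fold change was 1.98 ± 0.16 (adjusted p = 6.7e-05). Sostdc1, another secreted antagonist, rose by 1.43 ± 0.19 (adjusted p = 0.00072), Htra1, a secreted protease that can inhibit TGF-β family signals, by 1.81 ± 0.25 (adjusted p = 0.00082), and Crim1, a BMP-binding membrane protein, by 0.83 ± 0.10 (adjusted p = 0.00043). Fstl3, a follistatin-like gene, was the other higher gene, at 1.16 ± 0.17 (adjusted p = 0.0013) and without overlap. Fstl3 and the 4 lower genes were named after their values were seen. Fst, which encodes the activin- and BMP-binding protein follistatin, had 67.8 to 98.4 CPM in wild type and 48.0 to 61.5 CPM in YAP5SA (−0.66 ± 0.11, adjusted p = 0.0027). Chrdl1, a chordin-like antagonist, had 41.6 to 62.1 and 27.5 to 35.6 CPM (−0.65 ± 0.13, adjusted p = 0.0053). Both kept their calls with the replicate block and without any single library. Bmp1, a protease that cleaves chordin, was at −0.20 ± 0.04 (adjusted p = 0.0091), and Twsg1, which binds BMPs together with chordin, at −0.16 ± 0.04 (adjusted p = 0.021). The Twsg1 call was lost without wild type replicate 1 (0.063) or 3 (0.052) and without YAP5SA replicate 2 (0.064), 3 (0.062) or 4 (0.067).

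Intracellular inhibitors and the decoy receptor Bambi were higher for 5 of 8 genes and lower for none, with a median of 0.21. With the replicate block 4 were higher and 1 was lower, which was Tob1 (−0.34, adjusted p = 0.018). Smad7, an inhibitory SMAD, had 46.4, 41.3, 41.4 and 45.0 CPM in wild type libraries and 76.7, 83.3, 68.8 and 70.6 CPM in YAP5SA libraries (0.78 ± 0.08, adjusted p = 0.00014). Smad6, the inhibitory SMAD that acts mainly on the BMP branch, rose by 0.56 ± 0.06 (adjusted p = 0.00019). Skil, a corepressor of SMADs, rose by 0.39 ± 0.09 (adjusted p = 0.014), and Bambi by 0.27 ± 0.07 (adjusted p = 0.02). The Bambi call was lost without wild type replicate 4 (0.056) and in the 3 FPKM fits (0.054 to 0.062). Smurf1 was the other higher gene, at 0.14 ± 0.04 (adjusted p = 0.037). Its call was lost with the replicate block (0.073) and kept in only 3 of the fits that left out a single library. Smurf1 and Tob1 were named after their values were seen.

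Of 11 genes that respond to BMP signals 3 were higher and none was lower, with a median of 0.18. With the replicate block 2 were higher (Msx1 and Atoh8) and 1 was lower (Dlx5, a homeobox gene). Dlx5 was at −0.83 ± 0.31 on genotype alone (adjusted p = 0.094) and at −0.82 with the block (adjusted p = 0.044), and was named after its values were seen. Msx1, a homeobox gene, had 6.51, 5.73, 7.35 and 8.37 CPM in wild type libraries and 42.04, 59.8, 56.7 and 52.2 CPM in YAP5SA libraries, with a log2 fold change of 2.91 ± 0.15 (adjusted p = 4.8e-06). Atoh8, a basic helix-loop-helix gene, rose by 0.74 ± 0.13 (adjusted p = 0.0036). Id2, of the inhibitor of DNA binding family, rose by 0.20 ± 0.06 (adjusted p = 0.037). The Id2 call was lost with the replicate block (0.066) and with upper-quartile factors (0.051), and also without wild type replicate 2 (0.074), 3 (0.059) or 4 (0.094) and YAP5SA replicate 2, 3 or 4 (0.065 each). The other 8 response genes were not called on genotype alone, among them Id1 at 0.18 (adjusted p = 0.11) and Id3 at 0.08 (adjusted p = 0.56), which were chosen after their values were seen.

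**Figure D4:**
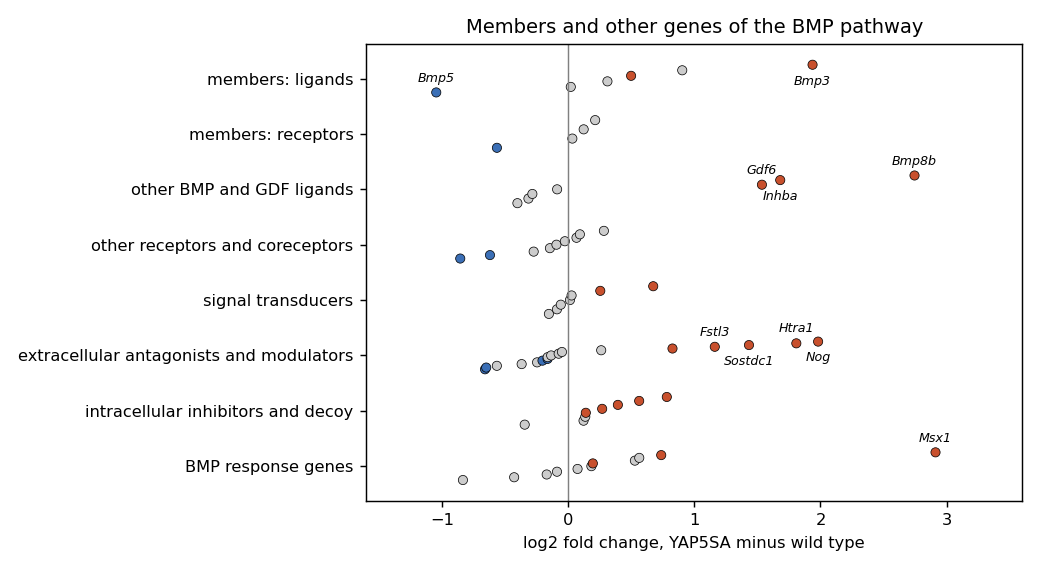
Log2 fold changes of the members and of the other tested pathway genes by role, YAP5SA minus wild type, 1 point per gene, orange where called higher, blue where called lower and grey otherwise, with names where the change exceeds 1. The points farthest to the right are Msx1 at 2.91, Bmp8b at 2.74, Nog at 1.98 and Bmp3 at 1.94, and the lowest point is Bmp5 at −1.04.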

How the data were processed

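Messenger RNA of E13.5 stomach was analysed in 4 wild type and 4 YAP5SA libraries, grouped by the labels. Per the labels' protocols, Trizol was used for RNA and a TruSeq kit for the libraries. The submitters' processing notes name build mm10 and the tools Cuffdiff, Cufflinks 2.2.1 and TopHat2 2.0.9, with no role or order. Strand use and duplicate removal are not given in the sources used here. The deposited table holds, per the file headers, raw fragments per library, which are estimated counts (10.6% to 11.0% of values were not whole within 1e-06), and FPKM as scaled by the authors. Counts were rounded. The 3582 loci without a gene name, with 1.85% to 1.97% of fragments, were left out of tests and library sizes. Where a gene of the lists had several loci, the most abundant was used.

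The main test was edgeR 4.0.16 (R 4.3.3), its robust two-sided quasi-likelihood test of genotype, with TMM factors and filterByExpr (10 fragments in enough libraries and 15 in total). Adjusted p-values are Benjamini-Hochberg over all 14574 tested loci, and each comes from this test unless another tool is named. The step was tested on simulated data with libraries drawn independently. The simulation held no shared deviations of same-numbered libraries and no shift of thin and dense loci with depth, so it does not cover these. Alternatives were RLE and upper-quartile factors, no filter, DESeq2 1.42.0, limma-voom and limma on log2 FPKM (limma 3.58.1; pseudocounts 0.1 and 1), a replicate block, and leaving out each library. The labels do not say that libraries are separate embryos, so p-values measure the spread between libraries. No pair of libraries agreed within counting error. Same-numbered libraries of the genotypes deviated together from their group means (correlations of 0.244, 0.197, 0.172 and 0.329 over 12875 loci), each above the 0.1 set for treating the numbers as pairs. Differently numbered libraries ran from −0.391 to 0.198, the highest being wild type 1 with YAP5SA 2, which is no lower than the pairs numbered 2 and 3. This pairing comes from the data, and the deposited table numbers its libraries from 0, so they were matched to the labels in numerical order, where genotype is certain and the number is not.

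All members were named, with genes checking the labels, up to 4 called genes with the smallest p per pathway list, the 2 most abundant markers per cell type described, and the 2 nearest profiles (at least 2 CPM) per called member. Members and lists were chosen with earlier results of these data known. Promoters are from RefSeq (GRCm38.p6), matched by symbol for 7 of the 10 members, and exonic lengths from GENCODE M21. The result of 1 marker list is not reported here.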

Additional observations from a re-analysis of the deposited data

Results flagged for a closer look

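A library was singled out where its gap to the nearest of the other 3 exceeded 0.829 of the range of its genotype. This was tested in 138 sets of 4 libraries (members and other pathway genes), and chance flags about 1 in 20 of them. It applied to 6 sets, none of them a member. Gdf6 was at 89.1 CPM in YAP5SA replicate 1, below 118 to 123 CPM in the others. Bmper, a secreted BMP-binding protein, was at 21.1 CPM in YAP5SA replicate 1, above 13.8 to 14.3 CPM. Grem1, which encodes the antagonist gremlin, was at 5.13 CPM in YAP5SA replicate 3, below 10.5 to 11.5 CPM. In wild type, Inhbb, an activin subunit gene, was at 18.0 CPM in replicate 4, above 14.0 to 14.6 CPM. Smad5 was at 244 CPM in wild type replicate 1, below 275 to 279 CPM. Bmp1, a protease gene, was at 213 CPM in wild type replicate 2, above 208 to 209 CPM.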

How the results depend on the processing

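Bmp3, Bmp4 and Bmp5 kept direction and call in all 17 alternatives, with log2 fold changes of 1.52 to 2.2 for Bmp3. With the replicate block, 4 members were higher and 1 lower, against 2 and 2 on genotype alone. The block added Bmp2 (0.88, adjusted p = 0.0037) and Bmp6 (0.32, adjusted p = 0.015), lost Bmpr1b (−0.56, adjusted p = 0.065), and changed no other call among the members. The count of lower members was also 1 without a filter on low counts and in the 3 FPKM fits, and from 1 to 2 when single libraries were left out. The cause was not tested. Bmp7, never called, ranged from −0.01 to 0.06 when single libraries were left out, and was negative without replicate 3 of either genotype. Over all loci 2032 to 3035 calls were made, against 2757. Among the other pathway genes, 15 to 20 were higher and 5 to 9 lower, in alternatives added after the data were seen. Bmp2 and Bmp3, with 43 to 87 and 50 to 80 fragments per wild type library, are the members that depth limits most.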

Other observations

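Some ligands outside the tested set gave values too low for a test. Gdf2, which encodes BMP9, a ligand made mainly by liver, had 0, 2, 2 and 1 fragments in the wild type libraries and 7, 21, 40 and 35 in the YAP5SA libraries. In the same YAP5SA libraries the liver marker Alb was at 18.8, 89.1, 52.3 and 93.8 CPM and Afp at 31.1, 112, 81.6 and 110 CPM. In wild type Alb was at 2.68 to 15.3 CPM and Afp at 7.58 to 28.9 CPM. YAP5SA replicate 1 was the lowest of its genotype for all 3 genes, while it was the highest for Bmp2, Bmp3, Bmp8b and Inhba. It was also the highest for Bmpr2 and Acvr1, and for Bmp5 and Bmpr1b, which were lower in YAP5SA. Macrophage Emr1 was also highest in replicate 1 and lowest in replicate 4, by 2.03-fold. These genes were picked after their values were seen.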
